A study of Homo sapiens with 6 samples.

Results

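The genes described here are 10 feedback and output genes of the ERK branch of MAP kinase signalling, namely the phosphatases DUSP4, DUSP5 and DUSP6, the Sprouty genes SPRY1, SPRY2 and SPRY4, the Sprouty-related genes SPRED1 and SPRED2, and the transcription factors ETV4 and ETV5. They were chosen by name for their place in the pathway, with earlier results of these data known. Each was read from the array row annotated with its symbol alone. All 10 had exactly 1 such row, out of 21921 genes with a row of their own and 65529 rows in all, here called clusters.

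In this pathway a receptor at the cell surface activates RAS, which switches on the kinases RAF, MEK and ERK in turn. ERK then raises the transcription of genes whose products restrain the same pathway. DUSP phosphatases take phosphate off ERK, and Sprouty and SPRED proteins act near the receptor and RAS. ETV4 and ETV5 are ETS-family transcription factors whose levels commonly follow ERK activity, so these transcripts are widely used as a readout of the pathway. In myeloma, plasma cells often carry RAS mutations and respond to interleukin-6 (IL-6), which also feeds into it.

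The cells were INA-6, an IL-6-fed multiple myeloma (MM) line, and each of 6 cultures was read on 1 Affymetrix array. Cells of 3 cultures received the EZH2 inhibitor UNC1999, and cells of the other 3 received UNC2400, an inactive form of the compound used as control. The groups follow the labels, which name UNC2400 as the control, whereas the study's text names DMSO for this experiment, so the compound behind each difference rests on the labels. Dose and time were matched at 1 μM for 120 hours, with medium and compound renewed at 72 hours, after seeding at 100000 cells per mL. EZH2 is the enzyme of Polycomb repressive complex 2, which marks silenced chromatin with H3K27me3. The labels call the 3 cultures of a group biological replicates. A single cell line was used, so p-values measure the spread between cultures of that line only. Less RNA per cell and fewer cells that express a gene cannot be told apart in such bulk samples.

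Values are deposited log2 expression values, with 4.22 the lowest in the table and array medians between 4.83 and 4.86. Folds of genes near that floor are compressed, and levels of different genes cannot be set against each other on these arrays. Arrays of the same group correlated at 0.9943 or more, arrays of different groups at 0.988 or less. EZH2 itself stood at 7.95, 8.03 and 8.14 with UNC1999 against 7.87, 7.89 and 7.79 with UNC2400, a difference of 0.19 that did not pass the test (limma, adjusted p = 0.099), and EZH1 did not pass either (adjusted p = 0.995). The label of plasma cell was checked on 10 marker genes, of which 8 fell and 1 rose with UNC1999. Their summed level was between 11.04 and 11.16 on the log2 scale with UNC1999 and between 12.09 and 12.22 with UNC2400, and its part in the results below was not tested. Of the markers of T cells, monocytes and stroma, only the T cell gene CD3E passed the test, 1.24-fold higher with UNC1999 (limma, adjusted p = 0.00804). These markers lay between 4.3 and 5.93 on all arrays. Their summed levels were 7.38 to 7.43 with UNC1999 and 7.3 to 7.36 with UNC2400 for 5 T cell genes, 7.33 to 7.37 with UNC1999 and 7.32 to 7.36 with UNC2400 for 6 monocyte genes, and 7.09 to 7.14 with UNC1999 and 7.06 to 7.13 with UNC2400 for 4 stromal genes.

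With UNC1999, 6 of the 10 genes were lower, 1 was higher and 3 had no difference that passed the test. The genes that fell were DUSP5, ETV4, DUSP4, ETV5, SPRED1 and SPRED2, by between 1.2-fold and 1.81-fold, and the gene that rose was SPRY1, by 1.61-fold. DUSP6, SPRY2 and SPRY4 did not pass. A call here means an adjusted p under 0.05 in limma over all clusters. By that rule 7.32% of all 21921 genes were lower and 9.16% higher with UNC1999, and 10.3% were lower among the 15157 genes brighter than the median cluster, to which 9 of the 10 genes belong (SPRY2 does not). The median log2 difference was -0.36 over the 10 genes and 0.01 over all genes. Since the 10 genes were chosen with earlier results of these data known, these comparisons are description and no test of the set. On all 6 genes that fell, each UNC1999 array lay below each UNC2400 array, a separation found in 13.7% of all genes. The opposite separation, seen for SPRY1, was more common and was found in 5282 of the 21921 genes.

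**Figure D1:**
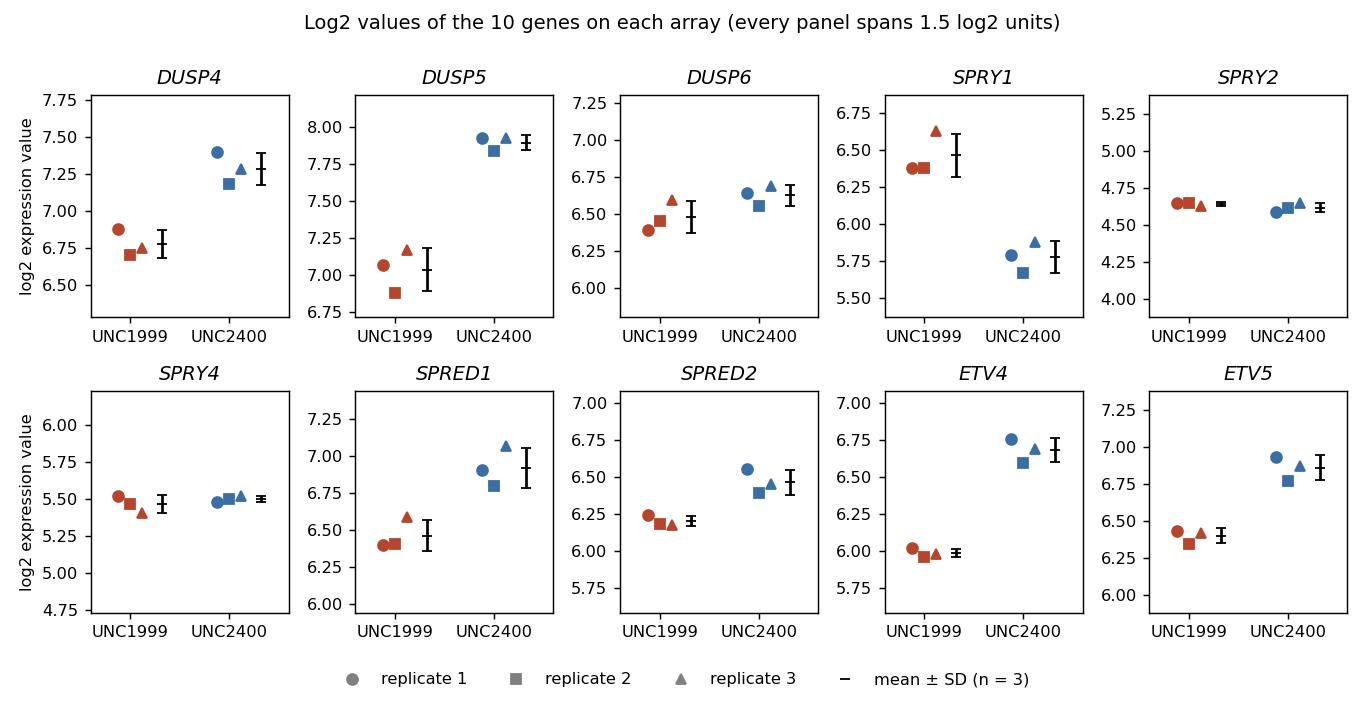
Log2 expression value of each of the 10 genes (vertical axis, 1.5 log2 units in every panel) on the 3 UNC1999 arrays (left, red) and the 3 UNC2400 arrays (right, blue), with the replicate number given by the marker shape and the mean ± SD in black. The groups are apart for DUSP4, DUSP5, SPRED1, SPRED2, ETV4 and ETV5 (lower with UNC1999) and for SPRY1 (higher), and overlap for DUSP6, SPRY2 and SPRY4.

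DUSP5, a nuclear phosphatase specific for ERK, changed most. Its log2 value was 7.07, 6.88 and 7.17 on the UNC1999 arrays against 7.93, 7.84 and 7.93 on the UNC2400 arrays. The lowest UNC2400 array was thus above the highest UNC1999 array by more than the spread within either group. The difference was -0.86 ± 0.08 (SE, n = 3 each), a 1.81-fold fall (limma, adjusted p = 0.003), and it ranked 187 among 21921 genes by size.

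DUSP4, an inducible nuclear phosphatase that acts on ERK and other MAP kinases, fell as well. It stood at 6.88, 6.7 and 6.75 with UNC1999 against 7.4, 7.18 and 7.28 with UNC2400, with no overlap. The difference was -0.51 ± 0.07 (SE, n = 3 each), or 1.42-fold (limma, adjusted p = 0.0113). Of the calls that held with any 1 array left out, this one came nearest to the threshold (adjusted p = 0.0499 without UNC1999 replicate 2).

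DUSP6, the cytoplasmic ERK phosphatase that is often taken as the standard feedback transcript, did not pass. It gave 6.39, 6.45 and 6.59 with UNC1999 against 6.64, 6.55 and 6.69 with UNC2400. The groups overlapped, since UNC1999 replicate 3 lay above UNC2400 replicate 2. The difference of -0.15 had a 95% interval from -0.30 to 0.01 (limma, adjusted p = 0.261), which leaves room for a small fall but not for one of the size seen in DUSP5.

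SPRY1 was the 1 gene of the 10 called higher. Sprouty proteins are membrane-associated inhibitors of signalling from receptor tyrosine kinases to RAS and ERK. SPRY1 stood at 6.38, 6.38 and 6.63 with UNC1999 against 5.79, 5.67 and 5.88 with UNC2400, with no overlap and with UNC1999 replicate 3 the highest. The rise was 0.69 ± 0.09 (SE, n = 3 each), or 1.61-fold (limma, adjusted p = 0.009). It was called with any 1 array left out (adjusted p up to 0.0394 without UNC2400 replicate 1).

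The other Sprouty genes gave flat values. SPRY4 was at 5.52, 5.47 and 5.41 with UNC1999 against 5.48, 5.5 and 5.52 with UNC2400. Its difference was -0.03 with a 95% interval from -0.11 to 0.05 (limma, adjusted p = 0.683). SPRY2 was at 4.65, 4.65 and 4.63 with UNC1999 against 4.59, 4.62 and 4.65 with UNC2400, below the median cluster level of 4.85 in every culture. Its difference was 0.02 with an interval from -0.03 to 0.08 (limma, adjusted p = 0.642). SPRY2 thus lay close to the floor, where folds are compressed.

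SPRED1 and SPRED2, which restrain RAS (SPRED1 by bringing the RAS inactivator neurofibromin to the membrane), both fell. SPRED1 stood at 6.4, 6.41 and 6.59 with UNC1999 against 6.91, 6.8 and 7.07 with UNC2400. The groups did not overlap, and the difference was -0.46 ± 0.08 (SE, n = 3 each), or 1.37-fold (limma, adjusted p = 0.0272). SPRED2 stood at 6.24, 6.18 and 6.17 with UNC1999 against 6.55, 6.39 and 6.45 with UNC2400. It too had no overlap, and the difference was -0.26 ± 0.05 (SE, n = 3 each), or 1.2-fold (limma, adjusted p = 0.0236).

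These calls were the least firm of the 7 when 1 array was left out. SPRED1 lost its call without UNC1999 replicate 1, UNC1999 replicate 2, UNC2400 replicate 1 or UNC2400 replicate 3 (adjusted p = 0.0946, 0.106, 0.0872 and 0.055). SPRED2 lost its call without any 1 of the UNC1999 arrays or without UNC2400 replicate 3 (adjusted p = 0.0589, 0.0951, 0.0587 and 0.0691). The difference kept its sign each time, from -0.52 to -0.39 for SPRED1 and from -0.30 to -0.22 for SPRED2.

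**Figure D2:**
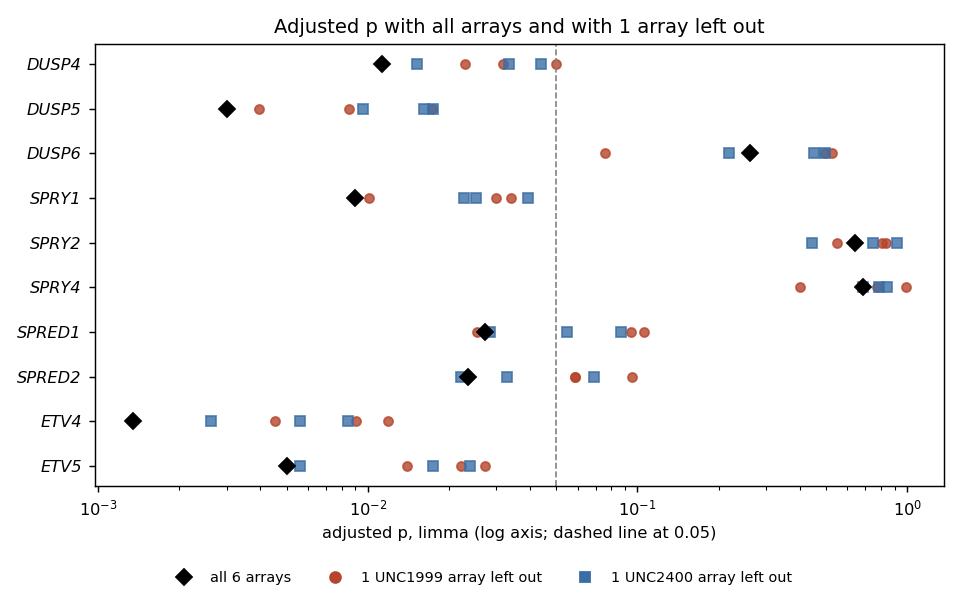
Adjusted p of each gene in limma (horizontal log axis) with all 6 arrays (black diamonds), with 1 UNC1999 array left out (red circles) and with 1 UNC2400 array left out (blue squares). DUSP4, DUSP5, SPRY1, ETV4 and ETV5 stay under the dashed line at 0.05 in every case, whereas SPRED1 and SPRED2 cross it.

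ETV4 and ETV5, activators of the PEA3 group, fell together. ETV4 was at 6.02, 5.96 and 5.98 with UNC1999 against 6.76, 6.6 and 6.69 with UNC2400, with no overlap. The difference was -0.70 ± 0.04 (SE, n = 3 each), or 1.62-fold, and had the smallest adjusted p of the 10 genes (limma, adjusted p = 0.00135). ETV5 was at 6.43, 6.34 and 6.42 with UNC1999 against 6.93, 6.77 and 6.87 with UNC2400, again without overlap. Its difference was -0.46 ± 0.05 (SE, n = 3 each), or 1.38-fold (limma, adjusted p = 0.005). ETV1, the remaining PEA3 factor, was near the floor, at 4.85, 4.8 and 4.8 with UNC1999 against 4.93, 4.88 and 4.88 with UNC2400, and did not pass (limma, adjusted p = 0.112).

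**Figure D3:**
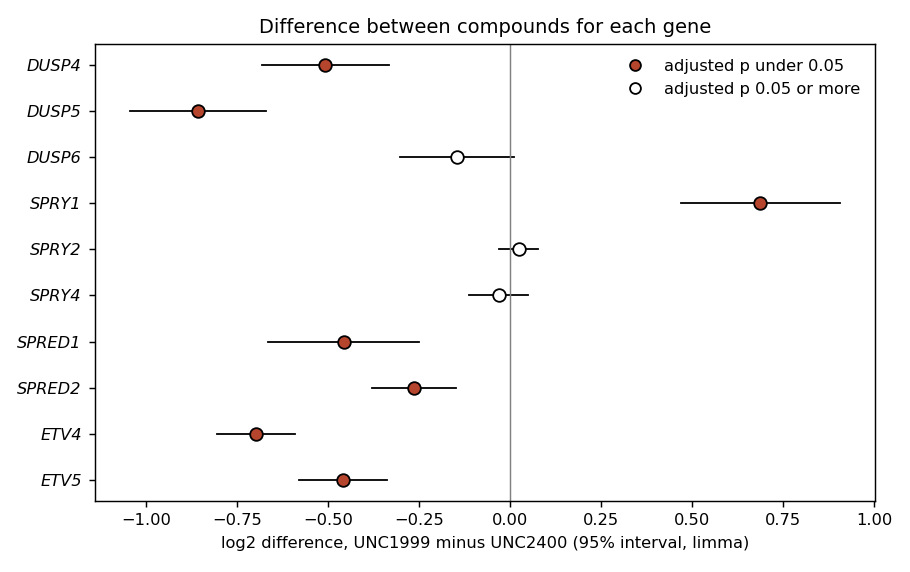
Log2 difference of each gene, UNC1999 minus UNC2400 (horizontal axis), with its 95% interval from limma. Filled points have an adjusted p under 0.05. The difference lies between -0.86 for DUSP5 and 0.69 for SPRY1, and the intervals of DUSP6, SPRY2 and SPRY4 include 0.

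The differences of related genes were also set against each other within arrays, for 5 pairs chosen after their values were seen. The log2 difference of DUSP5 minus that of DUSP6 was -0.71 ± 0.07 (SE, n = 3 each) on the log2 scale. That of DUSP4 minus DUSP6 was -0.36 ± 0.11, that of ETV4 minus ETV5 -0.24 ± 0.02, and that of SPRY1 minus SPRY4 0.72 ± 0.13. Each of these 4 had an exact two-sided permutation p = 0.1, the smallest that 3 against 3 arrays allow, or 0.125 after Benjamini-Hochberg adjustment over the 5 pairs. SPRED1 minus SPRED2 gave -0.19 ± 0.11 (exact permutation p = 0.3, adjusted 0.3). This exact test cannot go below 0.1 with so few arrays.

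Some arrays stood at the edge of their group for many of the genes. UNC2400 replicate 2 gave the lowest UNC2400 value for 8 of the 10 genes, all but SPRY2 and SPRY4. For those same 8 genes the highest UNC1999 array and the highest UNC2400 array bore the same replicate number. UNC1999 replicate 2 gave the lowest UNC1999 value for 5 genes (DUSP4, DUSP5, SPRY1, ETV4 and ETV5). The shares of all genes with these extremes were not computed, so the counts cannot be called particular to the 10 genes. Profiles centred per gene lay nearest for SPRY2 and SPRY4 (root mean square distance 0.04 on the log2 scale over 6 arrays), which were flat, and then for DUSP4 and ETV5 (0.05). Among other genes with 1 cluster each, the profiles nearest to that of DUSP5 were those of DHCR7, ST3GAL6, GBP2, PDP2 and PTPN13, at distances of 0.05 to 0.06 over 6 arrays. Their log2 differences ran from -0.86 for DHCR7, an enzyme of cholesterol synthesis, to -0.81 for GBP2, an interferon-induced GTPase.

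Of 20 chromosomal neighbours, the nearest measured protein-coding gene on each side in the GRCh38 gene order, 3 passed the test. By the same rule 7.32% of all genes were lower and 9.16% higher, so the count is near the share over all genes. KIF13B beside DUSP4 was 1.25-fold lower (limma, adjusted p = 0.0119), in the direction of DUSP4. NDFIP1 beside SPRY4 was 1.21-fold lower (limma, adjusted p = 0.0136) while SPRY4 gave no call. DHX8 beside ETV4 was 1.21-fold higher (limma, adjusted p = 0.0111), opposite to ETV4. The neighbours of DUSP5, SPRY1, SPRED1 and ETV5 had adjusted p of 0.382 or more. The antisense transcript ETV5-AS1 was near the floor, with overlapping groups and a difference of -0.05 (limma, adjusted p = 0.461).

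Promoter sequence is shown for the Sprouty gene that rose and, beside it, for one that gave no call and for SPRED1, which fell. RefSeq windows of GRCh38.p14, from 250 bases before to 50 after a start site, were found for 6 of the 10 genes, in 10 windows. They were searched on both strands for the ETS site CCGGAA, the motif that ETS factors bind, for the cyclic AMP response element TGACGT, the AP-1 site TGANTCA, the E-box CACGTG and the SRF CArG box. None of the matches overlapped another. One of 2 SPRY1 windows and one of 3 SPRY2 windows held an ETS site, which 17.2% of all 35116 windows hold. Start site use was not measured. The stretches below run 5′ to 3′ on the strand of the gene, with the ETS site in capitals. SPRY1 is chr4:123398266-123398385 on the plus strand, SPRY2 chr13:80341207-80341326 on the minus strand and SPRED1 chr15:38252716-38252835 on the plus strand.
SPRY1: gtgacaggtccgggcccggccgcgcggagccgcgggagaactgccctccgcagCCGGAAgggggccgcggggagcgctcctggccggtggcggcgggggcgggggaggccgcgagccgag
SPRY2: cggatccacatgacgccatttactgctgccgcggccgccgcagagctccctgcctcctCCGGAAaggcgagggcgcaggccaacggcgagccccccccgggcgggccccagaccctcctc
SPRED1: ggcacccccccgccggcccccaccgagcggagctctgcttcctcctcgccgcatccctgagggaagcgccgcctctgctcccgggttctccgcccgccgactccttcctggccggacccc

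Counted from the start site, the ETS site lay at -67 in SPRY1 and at -142 in SPRY2. SPRY1 rose and SPRY2 gave no call, so the same letters stood before genes with different results. The SPRED1, SPRY4 and DUSP6 windows held none of the 5 motifs. The SPRED2 windows held a cyclic AMP response element (in 7.98% of all windows) after one start site and AP-1 sites (in 7.71%) at the other.

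The other genes of the pathway were read from lists, again by counts past the same adjusted p in limma. Among 11 other MAP kinase phosphatases, 1 was higher, 1 lower and 9 did not pass, with a median difference of 0.02. DUSP22, an atypical phosphatase linked to JNK signalling, was 2.04-fold lower, at 7.74, 7.59 and 7.71 with UNC1999 against 8.8, 8.62 and 8.71 with UNC2400 (limma, adjusted p = 0.00127). DUSP1, an early-response phosphatase with a preference for p38 and JNK, was 1.29-fold higher, at 6.65, 6.61 and 6.51 with UNC1999 against 6.29, 6.15 and 6.24 with UNC2400 (limma, adjusted p = 0.0113, and 0.0564 without UNC1999 replicate 2).

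Of 11 further Sprouty-family genes and feedback inhibitors, 3 were higher, 1 lower and 7 did not pass, with a median of 0.10. SPRY3 was 1.25-fold lower, at 4.83, 4.87 and 4.97 with UNC1999 against 5.19, 5.2 and 5.24 with UNC2400 (limma, adjusted p = 0.0074, and at most 0.0412 with 1 array left out). IL17RD, also called SEF, an inhibitor of FGF signalling and itself a feedback gene, was 1.22-fold higher (limma, adjusted p = 0.00522). SPSB1 and ERRFI1 (the second an inhibitor of EGFR signalling) were 1.09-fold and 1.07-fold higher, and neither was called with any 1 array left out (limma, adjusted p from 0.0502 to 0.0957). SPRED3 did not pass (difference 0.06, limma, adjusted p = 0.392).

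Of 15 other ETS factors measured, counting the repressor CIC with them, 7 were higher, 0 lower and 8 did not pass (limma), with a median of 0.06. At an unadjusted p under 0.05, 7 were higher and 1 lower, the lower one being ETV1. ETV6, an ETS repressor, was 1.5-fold higher, at 7.94, 7.97 and 7.89 with UNC1999 against 7.42, 7.3 and 7.33 with UNC2400 (limma, adjusted p = 0.00167). ETS1, an activator that ERK phosphorylates, was 1.47-fold higher, at 5.85, 5.82 and 5.92 with UNC1999 against 5.33, 5.28 and 5.32 with UNC2400 (limma, adjusted p = 0.00104). ELK3 and ETV3 were 1.19-fold and 1.13-fold higher (limma, adjusted p = 0.00795 and 0.0105, the second 0.0502 without UNC1999 replicate 2).

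CIC and ERF, picked out after their values were seen, are repressors that ERK signalling switches off, and CIC is known to repress ETV4 and ETV5. CIC stood at 6.87, 6.86 and 6.74 with UNC1999 against 6.61, 6.49 and 6.56 with UNC2400, 1.21-fold higher (limma, adjusted p = 0.0245, with the call lost without UNC1999 replicate 1 or 2 or UNC2400 replicate 2 or 3, at up to 0.0967). ERF stood at 6.43, 6.33 and 6.36 with UNC1999 against 6.11, 6.04 and 6.18 with UNC2400, 1.2-fold higher (limma, adjusted p = 0.0189, with the call lost without UNC1999 replicate 1 or 2 or UNC2400 replicate 1, at up to 0.0708). Both were thus higher on every UNC1999 array, as were 5282 of all 21921 genes, while ETV4 and ETV5 were lower. Any link between them was not tested.

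**Figure D4:**
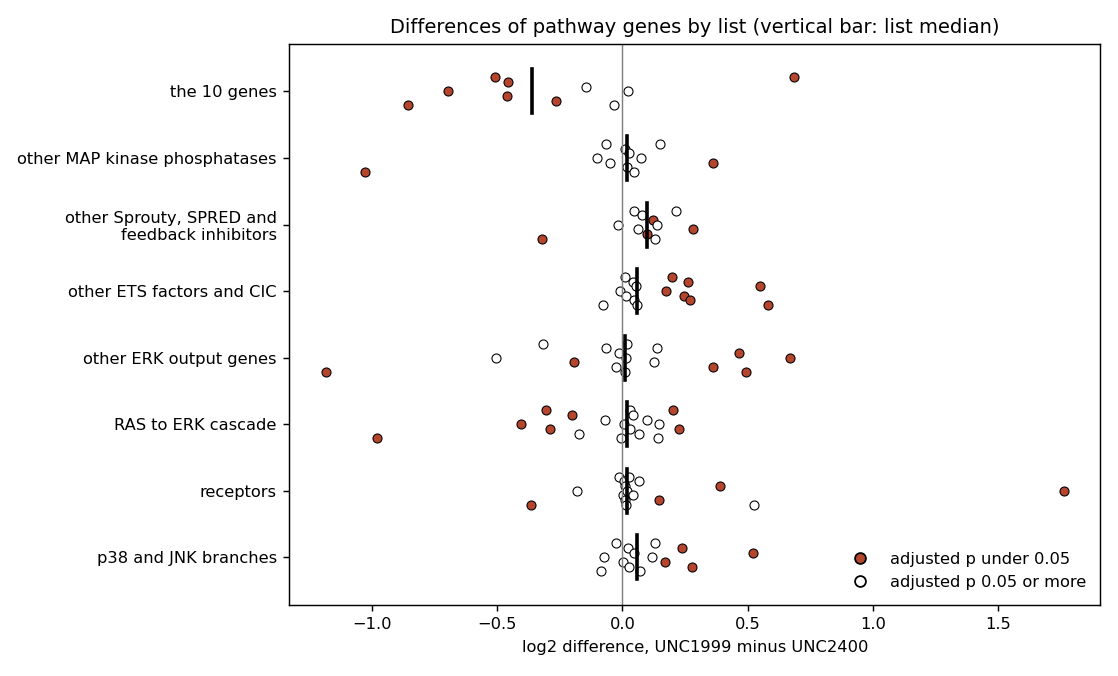
Log2 difference, UNC1999 minus UNC2400 (horizontal axis), of each measured gene in 8 lists, with the median of a list as a vertical bar and filled points for an adjusted p under 0.05 in limma. The 10 genes have a median of -0.36, whereas the medians of the other lists shown lie between 0.01 and 0.10. The plasma cell markers, which are not shown, had a lower median of -0.943.

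Other output genes of ERK moved in both directions. Of 16, 4 were higher, 2 lower and 10 did not pass, with a median of 0.01. MYC fell most, 2.27-fold, at 7.87, 7.67 and 7.83 with UNC1999 against 9.06, 8.91 and 8.95 with UNC2400 (limma, adjusted p = 0.00104), and the survival gene MCL1 was 1.14-fold lower (limma, adjusted p = 0.032, held only without UNC2400 replicate 3 when 1 array was left out). IER3, an immediate early gene, was 1.59-fold higher, at 6.98, 6.72 and 6.73 with UNC1999 against 6.09, 6.17 and 6.15 with UNC2400 (limma, adjusted p = 0.00568). FOS, the partner of JUN in AP-1, was 1.41-fold higher (limma, adjusted p = 0.0104, and 0.0531 without UNC1999 replicate 2). EPHA4 and PHLDA1, which are often scored with DUSP6, SPRY4 and the ETV genes as ERK output, were 1.38-fold and 1.28-fold higher (limma, adjusted p = 0.0103 and 0.00111). So these 2 went against ETV4, ETV5 and DUSP4. CCND1 and EGR1, likewise named after their values were seen, did not pass, with differences of 0.13 and -0.32 (limma, adjusted p = 0.0631 and 0.33). CCND1 was called after quantile normalization (adjusted p = 0.00914) and with the mean of the clusters of each gene (0.0359).

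Of 18 genes analysed for the cascade from RAS to ERK, 2 were higher, 5 lower and 11 did not pass, with a median of 0.02. RASA2, which inactivates RAS, was 1.97-fold lower, at 6.58, 6.59 and 6.77 with UNC1999 against 7.69, 7.66 and 7.53 with UNC2400 (limma, adjusted p = 0.00164). NF1, the neurofibromin that SPRED1 recruits, was 1.24-fold lower (limma, adjusted p = 0.0143). It was named after its values were seen, and lost its call without UNC1999 replicate 1 or 2 or UNC2400 replicate 1 or 3 (adjusted p up to 0.0665). The adaptor GRB2 was 1.32-fold, the RAS activator RASGRP3 1.22-fold and the kinase MAP2K1 (MEK1) 1.15-fold lower (limma, adjusted p = 0.00854, 0.00422 and 0.0125). MAPK3, which encodes ERK1, and MAP2K2 (MEK2) were 1.17-fold and 1.15-fold higher (limma, adjusted p = 0.0181 and 0.0438). The calls of MAP2K1, MAPK3 and MAP2K2 were lost without UNC1999 replicate 1 (adjusted p = 0.053, 0.0522 and 0.131) or 2 (0.0588, 0.0779 and 0.149). MAPK3 and MAP2K2 also lost theirs without UNC2400 replicate 1 or 3, and MAP2K2 without UNC1999 replicate 3 (adjusted p from 0.0519 to 0.0796). Activators and inhibitors of RAS were therefore both among the genes that fell.

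Of 16 measured receptors, 3 were higher, 1 lower and 12 did not pass, with a median of 0.02. KIT, the receptor of stem cell factor, was 3.39-fold higher, at 6.42, 6.52 and 6.83 with UNC1999 against 4.82, 4.81 and 4.84 with UNC2400 (limma, adjusted p = 0.00122). Its UNC2400 values were near the median cluster level of 4.85, where folds are compressed. IGF1R was 1.31-fold higher (limma, adjusted p = 0.00923) and FGFR3 1.11-fold higher (limma, adjusted p = 0.0474, held only without UNC1999 replicate 3 when 1 array was left out). IL6R, through which these cells receive IL-6, was 1.29-fold lower, at 5.72, 5.71 and 5.83 with UNC1999 against 6.22, 6.03 and 6.11 with UNC2400 (limma, adjusted p = 0.0157, with the call lost without UNC1999 replicate 1 or 2 or UNC2400 replicate 3, at up to 0.0704). IL6ST, the signalling subunit of the IL-6 receptor, named after its values were seen, did not pass (difference 0.53, limma, adjusted p = 0.054). It lay higher on every UNC1999 array, as did 5282 of all 21921 genes, at 7.59, 7.69 and 8.06 with UNC1999 against 7.29, 7.23 and 7.24 with UNC2400. Of 14 genes in the p38 and JNK branches, 4 were higher and 0 lower in limma, with a median of 0.06. At an unadjusted p under 0.05 in limma, 6 were higher and 1 lower, the lower one being MAPKAPK2. The leading genes were MAP3K5 (1.44-fold higher, limma, adjusted p = 0.00775) and MAP2K6 (1.21-fold higher, limma, adjusted p = 0.003). MAPK12 and MAP2K4 were 1.18-fold and 1.13-fold higher (limma, adjusted p = 0.0405 and 0.0373). With 1 array left out, MAPK12 held only without UNC1999 replicate 3 and MAP2K4 only without UNC2400 replicate 1 or 3 (otherwise up to 0.13 and 0.133).

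At the thresholds named in the methods (p no higher than 0.02 before adjustment, change of 1.5-fold or more), 3 of the 10 genes passed, DUSP5 and ETV4 as lower and SPRY1 as higher. By that rule 2.38% of all genes passed in either direction. DUSP4, ETV5 and SPRED1, at 1.42-fold, 1.38-fold and 1.37-fold, fell just short of the fold.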

How the data were processed

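Total RNA of 6 INA-6 cultures, 3 per compound, was hybridised to Affymetrix human transcriptome arrays, 1 array per culture. The deposited log2 expression values were used as the authors gave them. GeneSpring was used per the study's methods. How the values were summarised, normalized and background-corrected, and on which build, is not given in the sources used here. Although identifiers look like those of exon junctions or probe regions, each row was taken as 1 transcript cluster, after a check against the gene table in the study's supplement, of which no value is used. The table held 0 columns of other samples.

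Of 65529 clusters, 23129 had 1 gene symbol in the platform annotation, 1221 had several and 41179 had none. Outdated symbols (2540) were updated through the RefSeq gene table of GRCh38. A gene on several clusters (473 genes) took the one with the highest mean over all 6 arrays, and clusters with several symbols stood for no gene. Each of the 10 genes had 1 cluster.

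limma (version 3.58.1, R 4.3.3; lmFit and eBayes, group as the only term, two-sided) was fitted to all 65529 clusters, adjusted by Benjamini-Hochberg and called at 0.05. SEs and 95% intervals come from this fit, except the SEs of contrasts between genes, which come from the 3 values per group. The fit was tested on simulated arrays. Precision is limited by there being 3 arrays in each group, which carry no read depth. The alternatives were a replicate block, leaving out each array, quantile and cyclic loess normalization, leaving out dim clusters, an intensity trend, the mean of the clusters of a gene and the thresholds of the study.

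The 10 genes and the lists were chosen with earlier results of these data known. Named were all 10 genes, EZH2 and EZH1, up to 4 higher and 4 lower genes of each pathway list with the smallest p among those called, and the 5 genes nearest to the profile of the gene with the largest difference. Names outside this rule are marked as picked with values known, and the neighbouring genes, ETV1, SPRED3, ETV5-AS1, MAPKAPK2 and CD3E were likewise added afterwards.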

Additional observations from a re-analysis of the deposited data

How the results depend on the processing

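The counts for the 10 genes (1 higher, 6 lower) were the same under the replicate block, quantile normalization, cyclic loess, an intensity trend, the mean of the clusters of a gene and the removal of dim clusters, which dropped SPRY2 and took the median difference of the genes left to -0.458. At the thresholds of the study 2 were lower. With 1 array left out, 4 to 6 were lower (4 without UNC1999 replicate 1, UNC1999 replicate 2 or UNC2400 replicate 3) and 1 was higher, and the median lay between -0.403 and -0.321.

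Over all clusters, 6154 passed (3273 higher, 2881 lower). Leaving out 1 array gave 2914 to 6513 clusters, 1486 to 3657 higher and 1428 to 2856 lower, fewest without UNC1999 replicate 2. The thresholds of the study gave 1072, 453 higher and 619 lower. Cyclic loess gave 3011 higher and 3428 lower.

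Leaving out 1 array gave 3 to 7 called genes of the RAS to ERK cascade (7 with all arrays), 1 to 3 of the other phosphatases (2), 3 to 6 of the other ETS factors (7), 4 to 6 of the other output genes (6), 2 of the other Sprouty genes and inhibitors (4), 2 to 5 of the receptors (4) and 2 to 4 of the p38 and JNK genes (4). UNC1999 replicate 2 gave the lowest count of each list when left out, shared for the cascade, receptors and p38 and JNK genes with UNC1999 replicate 1, for the receptors also with UNC2400 replicate 3, for p38 and JNK also with UNC2400 replicate 2, and for the inhibitors with all arrays. The thresholds of the study gave 1, 1, 0, 2, 0, 1 and 0 in the same order. Cyclic loess and the removal of dim clusters each gave 2 of the other Sprouty genes and inhibitors. Of the named genes, FGFR3 and MAP2K4 lost their calls under quantile normalization, cyclic loess and the intensity trend, ERRFI1 under both normalizations, SPSB1 under cyclic loess, the trend and the removal of dim clusters, and MAP2K2 and MCL1 under the trend (adjusted p from 0.0557 to 0.0989). The causes of these shifts were not tested, beyond the smaller number of arrays or clusters.

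Equally numbered arrays were not treated as pairs, since their deviations from the group means correlated at 0.055, 0.083 and -0.012, and in 2 of 3 cases best with their own number. With the replicate block, 4262 clusters passed, of which 2162 were higher, and 2 p38 and JNK genes were called. Adjusted p of the 7 genes called here was then between 0.00822 and 0.0289. It was smaller than in the main fit for SPRED1 (0.0135 against 0.0272) and DUSP4 (0.00822 against 0.0113). The block left 6 cascade, 5 ETS, 5 output, 3 inhibitor and 3 receptor genes called, and the named genes that lost their call were CIC (0.0607), MAP2K4 (0.0649), MCL1 (0.0762), SPSB1 (0.0874), ERRFI1 (0.103), MAP2K2 (0.109), MAPK12 (0.128) and FGFR3 (0.139). Signal over background was not estimated, so what it limits for dim genes such as SPRY2 was not tested.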
